A study of Mus musculus with 18 samples.

Results

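The 9 genes described here encode enzymes that use arginine, make nitric oxide or itaconate, or handle superoxide in activated macrophages: Nos2, Gch1, Ass1, Asl, Arg1, Arg2, Odc1, Acod1 and Sod2. They were chosen by name, as 9 of the 21734 protein-coding genes in the table, and all 9 passed the filter on low counts that left 11357 genes for testing. RNA was sequenced from bone marrow-derived macrophages (BMDMs), which are macrophages grown from marrow in M-CSF. WT mice, KO mice lacking miR-146a and 3F mice, homozygous for the 3′F allele in which the seed of miR-146a is intact and a stretch nearer its 3′ end is exchanged, each gave 3 resting libraries and 3 libraries from cells given LPS, a Toll-like receptor ligand, at 1 ng/ml for 16 h. All mice were of 129/B6 mix and, by the study's culture methods, 6 to 7 months old, and marrow was cultured for 8 to 9 days with M-CSF at 10 ng/ml. The study's mass spectrometry methods give younger mice, although it states that replicates were split between sequencing and mass spectrometry. The series asks whether the 3′ part of miR-146a matters for its function, so 3F is set beside WT and KO in each state. Each mutant allele is a single mouse line made in embryonic stem cells, and the labels give 3 mice per genotype without tying a library to a mouse. The table holds protein-coding genes, so the level of miR-146a itself was not checked. The p-values measure the spread between these libraries.

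Inducible nitric oxide synthase, the product of Nos2, turns arginine into nitric oxide and citrulline, and needs the cofactor tetrahydrobiopterin, whose synthesis starts with the enzyme of Gch1. Ass1 and Asl rebuild arginine from citrulline. Arg1 and Arg2 encode the cytosolic and the mitochondrial arginase, which compete for arginine and yield ornithine, the substrate from which the enzyme of Odc1 makes putrescine, the first polyamine. Acod1 diverts aconitate from the tricarboxylic acid cycle into itaconate, and Sod2 is the mitochondrial manganese superoxide dismutase. In mouse macrophages Nos2 and Acod1 are textbook genes of activation by LPS and interferon, whereas high Arg1 is best known from cells given interleukin 4. miR-146a is a microRNA induced by NF-κB that restrains Toll-like receptor signalling through adaptors upstream of NF-κB.

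The alleles compared differ in the microRNA itself, so its sequence is shown with the seed, bases 2 to 8, in capitals. The WT sequence is from RefSeq (GRCm38.p6, chr11:43374435-43374456, minus strand), and the 3F sequence is that of the study's synthetic 3′F oligonucleotide without its added deoxythymidines.
miR-146a-5p WT: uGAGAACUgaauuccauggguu
miR-146a 3F: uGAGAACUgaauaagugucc
Over the 20 bases compared the alleles differed at 8 positions, all from position 13 to position 20, and were the same throughout the seed.

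All 8 macrophage markers were present in every library, at a summed 31800 to 87900 CPM (counts per 1000000 of scaled library size), with the highest sums in KO with LPS. At rest the sum ran from 60500 to 62400 CPM in KO, 31800 to 47800 in WT and 42700 to 62300 in 3F. Lyz2 alone ran from 26500 to 75200 CPM over all libraries. The part of these marker levels in the results was not tested. Markers of B cells, T and NK cells, dendritic cells, mast cells, stromal cells and erythroid cells each summed to at most 4.45 CPM, Cd3e was at 0 in every library, and neutrophil markers summed to between 13.7 and 67 CPM. Libraries held 4071084 to 19818043 counts, the fewest in resting 3F replicate 3, where the markers of neutrophils (66.5 CPM) and of dendritic cells (4.45 CPM) were highest among resting 3F libraries. Resting KO replicate 3 stood apart: 10 interferon response genes summed to 10600 CPM in it against 502 and 345 CPM in the other resting KO libraries, a level otherwise seen with LPS. Its neutrophil markers summed to 53.3 CPM against 15.7 and 28 CPM in the other resting KO libraries, and their part in the results was not tested. Results that rest on resting KO replicate 3 are given with and without it. In bulk RNA, fewer cells that express a gene and less RNA of it per cell cannot be told apart.

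LPS raised most of these enzymes in WT BMDMs. By edgeR's quasi-likelihood test with Benjamini-Hochberg adjustment over all genes tested, 7 of the 9 genes were called at an adjusted p under 0.05, of which 6 rose (Nos2, Gch1, Ass1, Arg1, Acod1 and Sod2) and Odc1 fell. Over all tested genes 28.5% were called, 16.3% higher and 12.3% lower. In 3F BMDMs 8 genes passed, the same 7 in the same directions and Arg2 (higher), and 31.2% of all genes were called (17.2% upwards and 14% downwards). In KO BMDMs 5 passed (Nos2, Gch1, Acod1 and Sod2 upwards and Odc1 downwards), while 26.9% of all genes were called, 14.3% higher and 12.6% lower. The median log2 difference of the 9 genes was 2.76 in WT, 1.59 in KO and 2.61 in 3F, and that of all tested genes lay within 0.02 of 0 in each genotype. Without resting KO replicate 3, 7 genes were called in KO, with Arg1 and Ass1 also higher, and their median was 3.14, where 35.2% of all genes were called. Resting and LPS libraries did not overlap for 7 of the 9 genes in WT, 6 in KO and 8 in 3F, where 47.5%, 42.7% and 45.2% of all tested genes did not. Asl passed in no genotype.

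**Figure D1:**
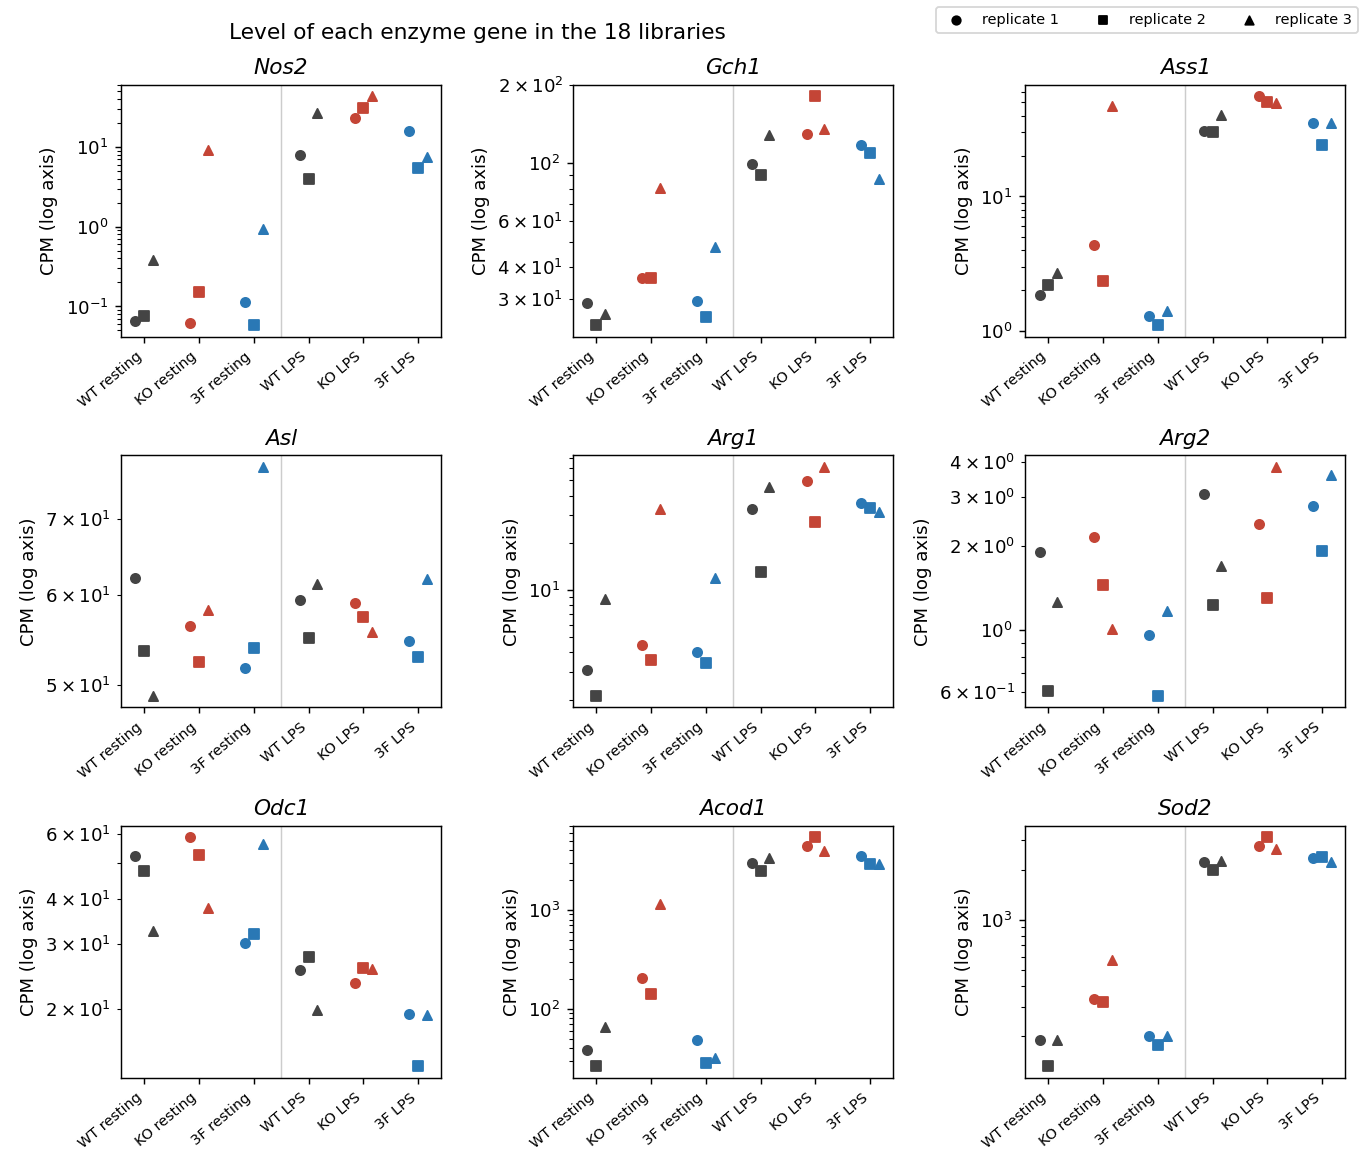
Level of each enzyme gene in CPM on a log axis, whose range differs between panels. Each point is 1 library, coloured by genotype (WT grey, KO red, 3F blue) and shaped by replicate number, with resting groups left and LPS groups right of the line; in the Nos2, Ass1 and Arg1 panels resting KO replicate 3 sits far above the other resting libraries.

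Nos2 (ENSMUSG00000020826, mm10 chromosome 11, 78920787 to 78960254, plus strand) was close to silent at rest. Resting WT libraries held 1, 1 and 4 Nos2 counts (0.0657, 0.0753 and 0.387 CPM), and WT libraries with LPS held 115, 58 and 367 counts (8.03, 3.96 and 26.9 CPM). Resting 3F libraries held 2, 1 and 4 counts (0.113, 0.0579 and 0.936 CPM), and 3F with LPS 220, 101 and 58 (16.1, 5.53 and 7.44 CPM). Resting KO libraries held 1, 2 and 81 counts (0.0618, 0.153 and 9.09 CPM), and KO with LPS 336, 421 and 605 (23.1, 30.5 and 43.2 CPM). Every library with LPS lay above every resting library of its own genotype, and WT with LPS spread widely, with replicate 3 inside the KO range.

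Because Nos2 rested on so few reads, its induction is given as a ratio of summed counts. The ratio of LPS to resting was 82 in WT (exact 95% interval 37.4 to 225), 53.5 in 3F (25.7 to 134) and 14.6 in KO (11.7 to 18.4), intervals that cover counting error only. The fitted log2 difference was 6.29 ± 1.44 (SE, adjusted p = 0.00382, edgeR) in WT, 5.64 ± 1.47 (adjusted p = 0.00847) in 3F and 3.6 ± 0.97 (adjusted p = 0.0108) in KO. The smaller KO value came with 1 library: without resting KO replicate 3 the KO difference was 8.17 (adjusted p = 3.55e-05, edgeR). In a fit of the KO groups alone the Nos2 response in KO was no longer called (adjusted p = 0.0731, edgeR). That fit called 2510 of all tested genes, against 3059 in the fit of all libraries.

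Gch1 (ENSMUSG00000037580, chromosome 14, 47153895 to 47189413, minus strand), the entry enzyme to the synthase cofactor, rose in all 3 genotypes. Resting libraries held 29, 23.8 and 26.3 CPM in WT, 36.2, 36.2 and 80.3 CPM in KO and 29.6, 25.7 and 47.8 CPM in 3F. With LPS they held 99.4, 90 and 129 CPM in WT, 130, 181 and 135 CPM in KO and 118, 110 and 87.1 CPM in 3F. No resting library reached the LPS libraries of its own genotype, although resting KO replicate 3 came close to the lower WT and 3F values. The log2 difference was 2.01 ± 0.29 (SE, adjusted p = 0.000106, edgeR) in WT, 1.55 ± 0.28 (adjusted p = 0.000705) in KO and 1.65 ± 0.29 (adjusted p = 0.000535) in 3F. Over the alternative fits the KO value ran from 1.29 to 2.04 and stayed called.

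Ass1 (ENSMUSG00000076441, chromosome 2, 31470207 to 31520672, plus strand), which joins citrulline to aspartate, went from a low level at rest to one that, per length, was close to that of Asl in WT and 3F and above it in KO. Resting WT libraries held 1.84, 2.18 and 2.71 CPM and resting 3F libraries 1.3, 1.1 and 1.4 CPM, while resting KO libraries held 4.39, 2.37 and 46.8 CPM. With LPS the values were 30.8, 30 and 40.5 CPM in WT, 55.5, 50 and 49.5 CPM in KO and 35.2, 24.2 and 35.3 CPM in 3F. Resting KO replicate 3 lay above all WT and 3F libraries with LPS and just below the lowest KO library with LPS. The log2 response was 3.92 ± 0.77 (SE, adjusted p = 0.00133, edgeR) in WT and 4.67 ± 0.86 (adjusted p = 0.000735) in 3F. In KO it was 1.59 ± 0.65, which did not pass (adjusted p = 0.0807, edgeR). It passed without resting KO replicate 3, at 3.91 (adjusted p = 2.04e-08, edgeR), and with the replicate number or the animal as a block, at 2.07 (adjusted p = 0.0217) and 2.59 (adjusted p = 0.0151).

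Asl (ENSMUSG00000025533, chromosome 5, 130011258 to 130029247, minus strand), which finishes the return of citrulline to arginine, stood between 48.9 and 62.1 CPM in 17 of the 18 libraries and at 77.7 CPM in resting 3F replicate 3. Its LPS difference on the log2 scale was 0.09 (95% interval −0.19 to 0.38) in WT, 0.04 (−0.24 to 0.33) in KO and −0.1 (−0.39 to 0.18) in 3F. Asl was thus expressed at a steady level in the same libraries in which its partner Ass1 moved.

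The cytosolic arginase also rose with LPS. Arg1 (ENSMUSG00000019987, chromosome 10, 24915221 to 24927484, minus strand) held 3.09, 2.11 and 8.7 CPM in resting WT, 4.45, 3.59 and 33 CPM in resting KO and 4.01, 3.42 and 11.9 CPM in resting 3F. With LPS it held 32.9, 13 and 45.4 CPM in WT, 49.8, 27.2 and 61 CPM in KO and 36.1, 33.2 and 31.4 CPM in 3F. Resting and LPS libraries did not overlap in WT or 3F, and in KO they overlapped through resting replicate 3. The log2 difference was 2.76 ± 0.77 (SE, adjusted p = 0.0127, edgeR) in WT and 2.61 ± 0.78 (adjusted p = 0.0184) in 3F. In KO it was 1.81 ± 0.71 (adjusted p = 0.0687, edgeR), and it passed at 3.51 without resting KO replicate 3 (adjusted p = 0.000387), at 2.18 with the replicate block (adjusted p = 0.00353) and at 2.35 with the animal as block (adjusted p = 0.00531). Single libraries decided the Arg1 calls in WT and 3F too. In WT the adjusted p was 0.0542 without LPS replicate 3, 0.0535 without resting replicate 1 and 0.0626 without resting replicate 2, and in 3F it was 0.0651 without resting replicate 1 and 0.0724 without resting replicate 2 (edgeR).

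Arg2 (ENSMUSG00000021125, chromosome 12, 79130777 to 79156301, plus strand), the mitochondrial arginase, was low throughout, at 5 to 54 counts per library. It held 1.9, 0.602 and 1.26 CPM in resting WT and 3.07, 1.23 and 1.69 CPM with LPS, and those groups overlapped. In 3F it held 0.96, 0.579 and 1.17 CPM at rest and 2.78, 1.92 and 3.59 CPM with LPS, with no overlap. KO libraries ran from 1.01 to 2.16 CPM at rest and from 1.3 to 3.85 CPM with LPS. The log2 response was 0.65 ± 0.49 (SE, adjusted p = 0.349, edgeR) in WT, 0.67 ± 0.47 (adjusted p = 0.319) in KO and 1.67 ± 0.52 (adjusted p = 0.0232) in 3F. The 3F call was lost without LPS replicate 1 (adjusted p = 0.0561), without LPS replicate 3 (adjusted p = 0.0698) or without resting replicate 2 (adjusted p = 0.0961, edgeR). The test of the difference between the 3F and WT responses did not pass, at 1.02 on the log2 scale (95% interval −0.49 to 2.54).

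Odc1 (ENSMUSG00000011179, chromosome 12, 17544794 to 17551505, plus strand), the first step of polyamine synthesis, was the one gene of the 9 that fell with LPS. Resting libraries held 52.2, 47.6 and 32.6 CPM in WT, 58.8, 52.5 and 37.7 CPM in KO and 30.2, 31.9 and 56.4 CPM in 3F. With LPS they held 25.5, 27.6 and 19.8 CPM in WT, 23.5, 25.8 and 25.6 CPM in KO and 19.3, 13.9 and 19.2 CPM in 3F. Every LPS library lay below every resting library. Odc1 fell by 0.86 ± 0.24 on the log2 scale (SE, adjusted p = 0.0125, edgeR) in WT, by 1 ± 0.24 (adjusted p = 0.00517) in KO and by 1.15 ± 0.25 (adjusted p = 0.00219) in 3F. The WT call was lost without LPS replicate 3 (adjusted p = 0.0654) or without resting replicate 1 (adjusted p = 0.0544, edgeR).

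Acod1 (ENSMUSG00000022126, chromosome 14, 103046977 to 103056573, plus strand), the itaconate-forming enzyme, reached the highest level per length of the 9 genes. Resting WT libraries held 38.6, 26.2 and 65.9 CPM and resting 3F libraries 47.9, 28.1 and 32.1 CPM. Resting KO libraries held 203, 142 and 1140 CPM, so each of the 3 lay above every resting WT and 3F library. With LPS the values were 2960, 2460 and 3380 CPM in WT, 4440, 5410 and 3970 CPM in KO and 3500, 2930 and 2940 CPM in 3F. The rise was 67.5-fold in WT (log2 6.08 ± 0.67 SE, adjusted p = 7.99e-06, edgeR), 86.3-fold in 3F (6.43 ± 0.69, adjusted p = 4.73e-06) and 9.32-fold in KO (3.22 ± 0.59, adjusted p = 0.000675). Without resting KO replicate 3 the KO rise was 26.7-fold (log2 4.74, adjusted p = 1.39e-07, edgeR).

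Sod2 (ENSMUSG00000006818, chromosome 17, 13006846 to 13040063, plus strand), the mitochondrial superoxide dismutase, had the smallest standard errors among the genes that rose. Resting libraries held 190, 131 and 188 CPM in WT, 335, 318 and 572 CPM in KO and 200, 177 and 199 CPM in 3F. With LPS they held 2220, 1990 and 2250 CPM in WT, 2790, 3130 and 2680 CPM in KO and 2360, 2370 and 2230 CPM in 3F. The rise was 12.7-fold in WT (log2 3.67 ± 0.21 SE, adjusted p = 8.91e-09, edgeR), 7.03-fold in KO (2.81 ± 0.2, adjusted p = 9.42e-08) and 12.1-fold in 3F (3.6 ± 0.21, adjusted p = 1.14e-08). Over the alternative fits the KO log2 value ran from 2.55 to 3.14 and stayed called.

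**Figure D2:**
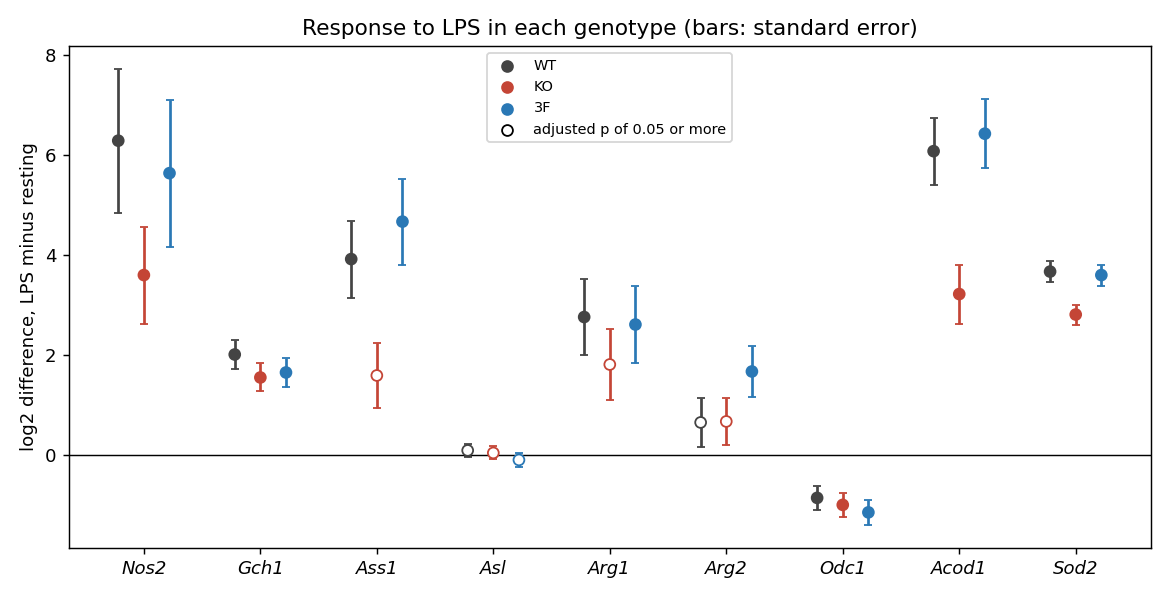
Log2 difference of LPS minus resting for each gene in WT (grey), KO (red) and 3F (blue), with the standard error from the edgeR fit of all 18 libraries; filled points passed an adjusted p of 0.05 and open points did not. For Nos2, Ass1, Arg1, Acod1 and Sod2 the KO point lies below the WT and 3F points, which lie near each other, and Odc1 lies below 0 in every genotype.

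Between genotypes, the differences that passed were at rest and set KO apart from both WT and 3F. In resting KO against resting WT 3 of the 9 genes were called, all higher in KO (Acod1, Ass1 and Sod2), where 9.4% of all tested genes were called. In resting KO against resting 3F the same 3 genes were called, all higher in KO, where 12.9% of all genes were called. These comparisons share the KO libraries. Without resting KO replicate 3 there were 2 (Acod1 and Sod2) against WT and the same 3 against 3F, where 7.03% and 7.99% of all genes were called. Libraries did not overlap for Acod1, Gch1 and Sod2 against WT and for Acod1, Ass1 and Sod2 against 3F, 3 genes in each, where 26.8% and 29.7% of all tested genes did not. With LPS no member was called in KO against WT, where 4.79% of all genes were called, or in KO against 3F, where 3.88% were. At an unadjusted p under 0.05, 1 of the 9 genes passed in each, Sod2 against WT (adjusted p = 0.264) and Odc1 against 3F (adjusted p = 0.288, edgeR). Of all 11357 tested genes, 2041 and 1921 did. DESeq2 called none of the 8 members with an adjusted p (all but Ass1) in either, while limma-voom called 2 and 3. Over all tested genes DESeq2 called 983 and 801, and limma-voom 1777 and 1842.

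At rest, KO held 11.4-fold more Acod1 than WT (log2 3.51 ± 0.6 SE, adjusted p = 0.00271, edgeR) and 13.7-fold more than 3F (3.77 ± 0.61, adjusted p = 0.00227). Without resting KO replicate 3 it was 3.97-fold higher than in WT (log2 1.99, adjusted p = 0.00167) and 4.76-fold higher than in 3F (2.25, adjusted p = 0.000706). Sod2 was 2.41-fold higher than in WT (1.27 ± 0.19, adjusted p = 0.00158, edgeR) and 2.13-fold higher than in 3F (1.09 ± 0.19, adjusted p = 0.00421), and without that library it was 1.92-fold higher than in WT (0.94, adjusted p = 0.00167) and 1.71-fold higher than in 3F (0.77, adjusted p = 0.00612). For both genes the 3 KO libraries lay above all 6 resting libraries of the other genotypes. In a fit of the compared groups alone Acod1 passed against neither WT (adjusted p = 0.0724) nor 3F (adjusted p = 0.124), and Sod2 was lost against 3F (adjusted p = 0.13, edgeR). The log2 differences of Acod1 were then 3.48 and 3.76. Calls over all tested genes fell in that setting from 1067 to 396 against WT and from 1464 to 16 against 3F.

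Ass1 depended on resting KO replicate 3 in the comparison with WT. Resting KO held 7.73-fold more of it than WT (log2 2.95 ± 0.78 SE, adjusted p = 0.0253, edgeR), yet KO replicate 2 (2.37 CPM) lay within the WT range. Without KO replicate 3 the log2 difference was 0.63 (adjusted p = 0.206), and the call was also lost without WT replicate 1 (adjusted p = 0.0991), 2 (adjusted p = 0.0921) or 3 (adjusted p = 0.0635, edgeR) and with limma-voom (0.65, adjusted p = 0.352). Against 3F the difference was 3.79 ± 0.86 (adjusted p = 0.012), and at 1.48 it still passed without KO replicate 3 (adjusted p = 0.0119, edgeR). In a fit of the compared groups alone Ass1 passed against neither WT (adjusted p = 0.201) nor 3F (adjusted p = 0.2, edgeR), where 396 and 16 of all tested genes were called.

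Gch1 lay higher in all 3 resting KO libraries than in resting WT, and its adjusted p fell just outside the threshold (log2 0.94 ± 0.29 SE, adjusted p = 0.0502, edgeR). Over the alternatives the adjusted p ran from 0.0125 (DESeq2) to 0.265 (without KO replicate 3, where the difference was 0.46), and leaving out 1 library made it pass in 5 cases, resting KO replicate 1 (adjusted p = 0.0282) or 2 (0.0256), KO with LPS replicate 2 (0.0474), and resting 3F replicate 2 (0.0494) or 3 (0.0232). Nos2 and Arg1 had large differences in resting KO against WT, 4.01 ± 1.71 (adjusted p = 0.165) and 1.55 ± 0.78 (adjusted p = 0.244), that did not pass, although Nos2 passed by DESeq2 (adjusted p = 0.035). Without KO replicate 3 they were −0.56 (adjusted p = 0.928) and −0.14 (adjusted p = 0.936, edgeR). The remaining genes, Asl, Arg2 and Odc1, differed by 0.02, 0.32 and 0.17 on the log2 scale and did not pass.

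**Figure D3:**
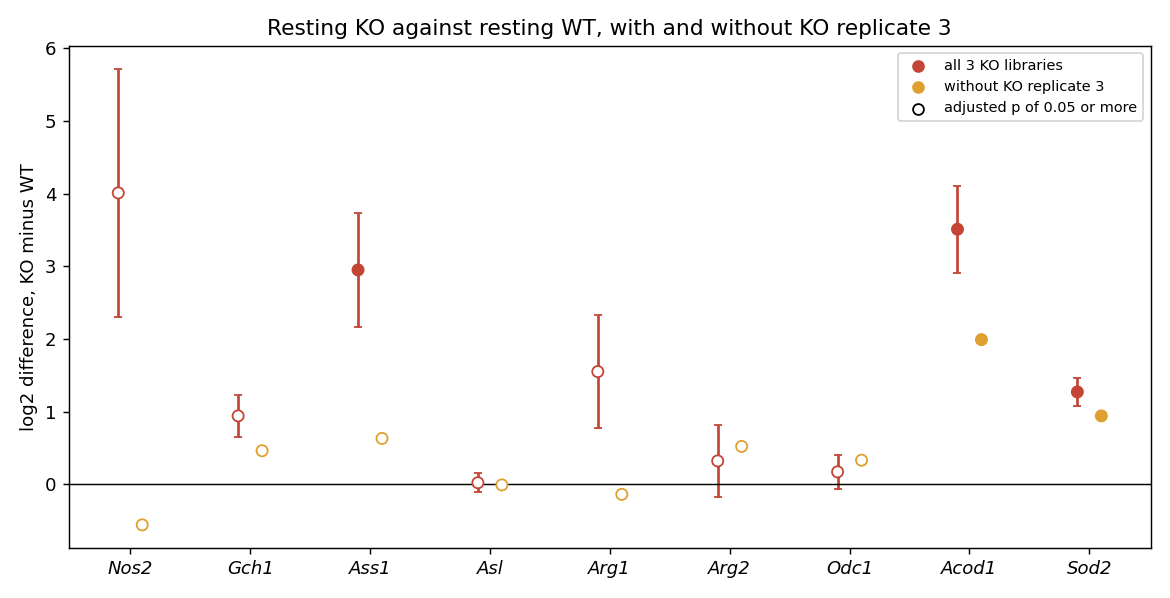
Log2 difference of resting KO minus resting WT for each gene, from the edgeR fit of all libraries (red, with standard error) and from the fit without resting KO replicate 3 (yellow, no error drawn); filled points passed an adjusted p of 0.05. Acod1 and Sod2 stay above 0 and filled in both, Ass1 is filled only with replicate 3, and Nos2 and Arg1 drop to slightly below 0 without it.

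With LPS the KO libraries lay above WT for several genes, by amounts that the fit of all libraries did not separate from the spread. KO and WT libraries did not overlap for Acod1, Ass1, Gch1 and Sod2, 4 of the 9 genes, and for 33% of all tested genes. The log2 differences were 0.65 (95% interval −0.5 to 1.8) for Acod1, 0.62 (−0.7 to 1.93) for Ass1, 0.49 (−0.1 to 1.07) for Gch1 and 0.41 (0.01 to 0.81) for Sod2. Nos2 was at 1.32 (−0.42 to 3.05) and overlapped because WT replicate 3 reached 26.9 CPM. Against 3F, the KO libraries with LPS did not overlap for 6 of the 9 genes and for 34.3% of all tested genes, with log2 differences among the 6 of 1.73 for Nos2, 0.56 for Acod1, 0.72 for Ass1, 0.5 for Gch1, 0.52 for Odc1 and 0.3 for Sod2. Leaving out resting KO replicate 3, a library outside these contrasts that enters the shared spread, gave Ass1 an adjusted p of 0.0435 against WT and 0.0253 against 3F at nearly the same differences, 0.61 and 0.72 (edgeR). Over all tested genes, leaving out resting KO replicate 3 took the calls from 544 to 944 against WT and from 441 to 757 against 3F. In a fit of KO and WT with LPS alone Acod1 (adjusted p = 0.0433), Ass1 (adjusted p = 0.0252) and Sod2 (adjusted p = 0.0499) passed. That fit called 1031 of 10903 tested genes, against 544 of 11357 in the fit of all libraries.

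3F did not separate from WT for any of the 9 genes. None was called at rest, where 0% of all tested genes were called, or with LPS, where 0.00881% (1 gene, not a member) were. At an unadjusted p under 0.05 no member passed in either state, limma-voom called none as well, and DESeq2 none of the 8 with an adjusted p (Ass1 had none). Over all tested genes, 557 at rest and 106 with LPS had an unadjusted p under 0.05 by edgeR. DESeq2 and limma-voom each called 2 at rest, and with LPS they called 2 and 1. The intervals show what differences the data leave possible: for Acod1 −1.44 to 0.91 at rest and −1.05 to 1.23 with LPS, and for Sod2 −0.23 to 0.58 and −0.29 to 0.51, on the log2 scale. For Nos2 they were far wider, −5.65 to 6.13 at rest and −2.19 to 1.37 with LPS. Libraries of 3F and WT did not overlap for Ass1 at rest, at −0.84 ± 0.99 (SE, adjusted p = 0.882, edgeR), or for Odc1 with LPS, at −0.48 ± 0.24 (adjusted p = 1), where 7.12% and 7.87% of all tested genes did not overlap.

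The smaller LPS response of KO was tested as an interaction. The response in KO minus that in WT was −2.86 ± 0.78 (SE) on the log2 scale for Acod1 (unadjusted p = 0.00213, adjusted p = 0.507, edgeR), −0.85 ± 0.27 for Sod2 (unadjusted p = 0.00588, adjusted p = 0.591) and −2.34 ± 0.99 for Ass1 (unadjusted p = 0.0318, adjusted p = 0.923). No member was called, where 0.00881% of all genes were. These 3 were the members with an unadjusted p under 0.05, as 560 of all 11357 tested genes had. limma-voom also called none of the 9, and DESeq2 none of the 7 for which it gave an adjusted p (not Ass1 and Arg2). Over all tested genes limma-voom called 57 and DESeq2 23. Without resting KO replicate 3 the values were −1.34 for Acod1, −0.53 for Sod2 and −0.02 for Ass1, and those of Nos2 and Arg1 changed from −2.69 and −0.95 to 1.87 and 0.73, none of them called. For 3F minus WT the members ranged from −0.65 (Nos2) to 1.02 (Arg2). None had an unadjusted p under 0.05, where 203 of all 11357 tested genes did. None was called by edgeR, limma-voom or, leaving aside Ass1, DESeq2, where 0% of all genes were called by edgeR.

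The 10 interferon response genes stood high in resting KO replicate 3, as Nos2 and Ass1 did. Their summed level was 68.5, 71.8 and 172 CPM in resting WT, 125, 86.2 and 150 CPM in resting 3F and 502, 345 and 10600 CPM in resting KO. With LPS it was 6030, 2550 and 15400 CPM in WT, 9730, 13200 and 10200 CPM in KO and 6600, 7060 and 4710 CPM in 3F. In WT with LPS the order of the libraries was the same for the interferon sum, Nos2, Gch1, Ass1, Arg1, Acod1 and Sod2, with replicate 3 highest and replicate 2 lowest. In KO with LPS it was not: the sum, Gch1, Acod1 and Sod2 were highest in replicate 2, Nos2 and Arg1 in replicate 3 and Ass1 in replicate 1. In 3F with LPS the sum was highest in replicate 2, where Nos2 and Ass1 were lowest. In resting KO all 10 genes, which were listed with earlier results of these data known, were called higher than in WT. Their median log2 difference was 5.08, and 9.4% of all tested genes were called. Without replicate 3 there were 8, with a median of 2.13, where 7.03% of all genes were called. Within resting KO, replicate 3 stood above the mean of replicates 1 and 2 by 84.7-fold for Nos2, 13.9-fold for Ass1, 8.21-fold for Arg1, 6.6-fold for Acod1, 2.22-fold for Gch1 and 1.75-fold for Sod2, and below it for Odc1 (0.678 of that mean) and Arg2 (0.559). Replicates 1 and 2 alone held a mean of 172 CPM of Acod1, 3.96 times that of resting WT, and 326 CPM of Sod2, 1.92 times that of WT, while their means were 0.61 of WT for Nos2 and 0.868 for Arg1. The part of the interferon genes in these levels was not tested.

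**Figure D4:**
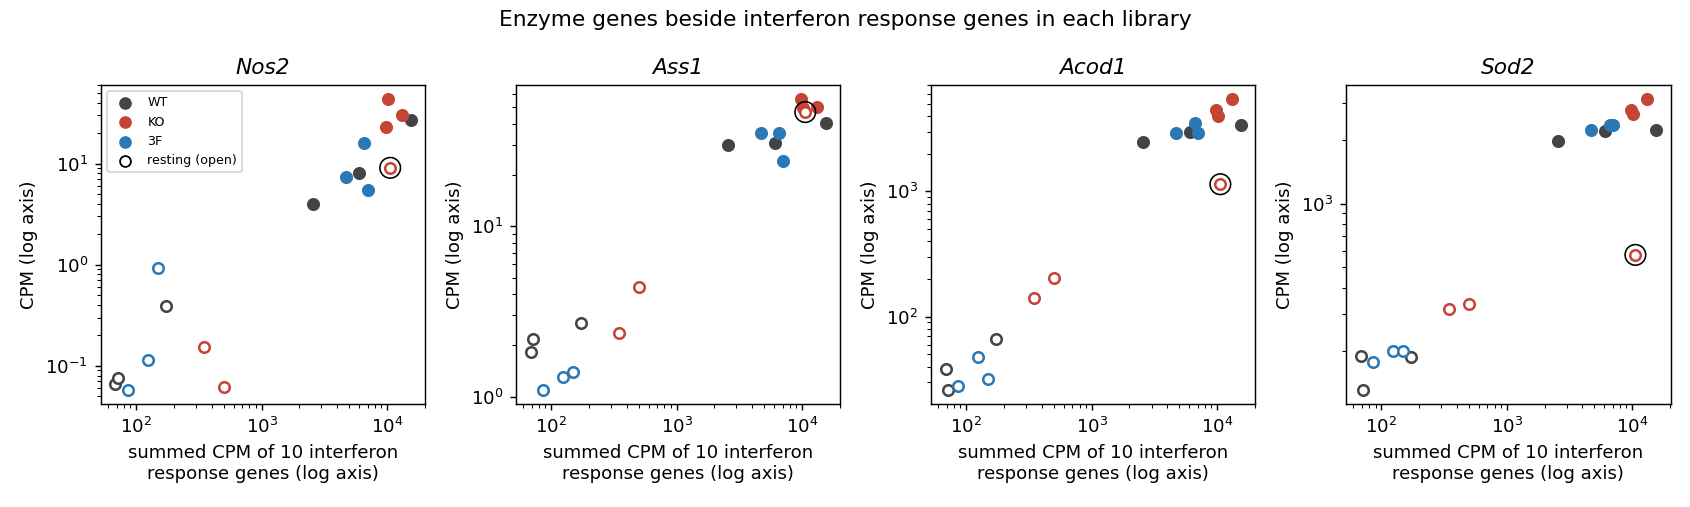
CPM of Nos2, Ass1, Acod1 and Sod2 against the summed CPM of 10 interferon response genes in each of the 18 libraries, both on log axes, coloured by genotype with resting libraries open and LPS libraries filled. The ringed point is resting KO replicate 3, which lies among the LPS libraries for Nos2 and Ass1 and between resting and LPS libraries for Acod1 and Sod2.

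Compared per length, as CPM per kb of exon, the 9 genes could be ranked by level. In WT with LPS, Acod1 stood at 1120 ± 175 CPM per kb (SD, n = 3) and Sod2 at 563 ± 37.2, followed by Gch1 at 38.2 ± 7.33. Arg1 (20.6 ± 11), Ass1 (19.9 ± 3.45) and Asl (19.1 ± 1.05) overlapped in their spreads, and the wide spread of Arg1 reached Gch1 and Odc1 too. Then came Odc1 at 11 ± 1.83, and Nos2 (3.02 ± 2.85) and Arg2 (1.4 ± 0.672), which overlapped as well. At rest in WT the order was Sod2 at 44.3 ± 8.78, then Odc1 (20 ± 4.64), Asl (17.9 ± 2.19) and Acod1 (16.6 ± 7.73), whose spreads overlapped with each other and, for Acod1, with Gch1 at 9.51 ± 0.944. Arg1 at 3.14 ± 2.41, Ass1 at 1.32 ± 0.258 and Arg2 at 0.879 ± 0.456 did not differ beyond their spreads, and Nos2 was lowest at 0.041 ± 0.0425. Arginase 1 transcripts thus exceeded those of the synthase per length in each of the 18 libraries. In KO with LPS the values were 1760 ± 281 for Acod1, 749 ± 61.5 for Sod2 and 7.51 ± 2.36 for Nos2.

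Across the 18 libraries, log2 CPM of Acod1 and Sod2 correlated at r = 0.98, and Acod1 and Ass1 at 0.98. Nos2 correlated with Gch1 at 0.97, with Arg1 at 0.96 and with Ass1 at 0.94. Asl correlated with the other 8 genes at between 0.02 and 0.23, and Odc1 was negatively related to all but Asl, from −0.78 (Sod2) to −0.42 (Arg2). These values describe libraries that share the LPS contrast and, in part, depth. In the 16 libraries other than resting KO replicate 3 and resting 3F replicate 3, Asl correlated with 7 of the genes at 0.38 to 0.5 and with Odc1 at −0.15. By the rule of the 3 highest correlations over 18 libraries, the genes most like Nos2 were H2-T22 (r = 0.983), Psme2 (0.98) and Gpr141 (0.98). Those most like Acod1 were Fpr1 (0.992), Mfsd7a (0.991) and Fpr2 (0.991), and those most like Sod2 were Clec4e (0.996), Agtrap (0.994) and Ptges (0.994). Gch1 was followed most closely by Prdx5 (0.994), Mvp (0.992) and Psme2 (0.991), and Ass1 by Gbp2, Sp100 and Ddx58 (0.986 each). Arg1 was nearest to Cd72 (0.969), Nos2 (0.964) and Gbp6 (0.957), Arg2 to Wdr66 (0.818), Cd14 (0.79) and Adgb (0.772), Odc1 to Rgs10 (0.927), Rabgap1l (0.92) and Arhgap26 (0.905), and Asl to Mien1 (0.913), Ndufb9 (0.908) and Ptrh2 (0.902). The nearest genes changed with the libraries used: without resting KO replicate 3 and resting 3F replicate 3, none of the 3 was kept for Acod1, Ass1, Asl and Gch1, 1 for Nos2, Arg1, Arg2 and Sod2, and 2 for Odc1.

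Beyond the 9 genes, 92 genes of the surrounding pathways were listed, of which 83 were tested. In the LPS response of WT 31 of them were called, 22 higher and 9 lower (28.5% of all tested genes were called), and in that of 3F 40 were, 23 higher and 17 lower (31.2% of all genes). In KO 27 were called, 17 higher and 10 lower (26.9% of all genes). Nrf2 targets gave 7 of 10 higher and none lower in WT, and superoxide and peroxide handling genes 7 of 16 higher and none lower. Arginine supply and transport gave 3 of 7 higher and 1 lower, genes of other nitric oxide synthases and the cofactor pathway 1 of 11 higher and 2 lower, polyamine and ornithine genes 1 of 16 higher and 3 lower, and tricarboxylic acid cycle neighbours of itaconate 3 of 23 higher and 3 lower. Of 7 tested genes of alternative activation 3 were higher and 1 lower, and all 10 interferon genes were higher.

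Of the called genes in these lists and that of alternative activation, Slc7a2, Slc7a11, Prdx5, Hmox1 and Il4ra were named for their WT responses by size. Slc7a2, a cationic amino acid transporter that carries arginine, rose 9.44-fold in WT (log2 3.24 ± 0.36 SE, adjusted p = 7.99e-06, edgeR), from 25.5 ± 2.49 to 241 ± 53.6 CPM (SD, n = 3), and 15.8-fold in KO and 14.6-fold in 3F. Slc7a11, the cystine transporter subunit, rose 6.8-fold in WT (2.77 ± 0.35, adjusted p = 2.62e-05), 3.39-fold in KO and 5.77-fold in 3F. Without resting KO replicate 3 the KO log2 difference went from 3.99 to 4.22 for Slc7a2 and from 1.76 to 1.56 for Slc7a11. Prdx5, a peroxiredoxin, rose 5.76-fold (2.52 ± 0.34, adjusted p = 4.75e-05) and heme oxygenase Hmox1 4.41-fold (2.14 ± 0.2, adjusted p = 1.15e-06) in WT. From the list of alternative activation, Il4ra, a chain of the interleukin 4 receptor, rose 3.74-fold (1.9 ± 0.25, adjusted p = 5.01e-05).

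In resting KO against resting WT 9 of the 83 pathway genes were called, 5 higher and 4 lower, where 9.4% of all genes were called, and without resting KO replicate 3 there were 4. Without resting WT replicate 1, 2 or 3 the count was 4, 2 and 4, and without resting 3F replicate 3 it was 17. Calls over all tested genes moved in the same directions, from 1067 to 808 without resting KO replicate 3. They were 584, 392 and 700 without resting WT replicate 1, 2 or 3, and 1610 without resting 3F replicate 3. Nqo1, a quinone reductase and Nrf2 target, was 4.41-fold higher (log2 2.14 ± 0.6 SE, adjusted p = 0.0332, edgeR), but ran from 8.84 to 78.3 CPM among the KO libraries and was at 0.45 without replicate 3 (adjusted p = 0.348). Prdx5 was 2.36-fold higher (1.24 ± 0.32, adjusted p = 0.0241) and was at 0.69 without that library (adjusted p = 0.124). From the separate list of alternative activation, Tgm2, a transglutaminase, was 1.89-fold higher (0.92 ± 0.22, adjusted p = 0.0153) and still passed without it (0.87, adjusted p = 0.0382). On the ornithine side, Aldh18a1, which makes the precursor of proline and ornithine, was at −1.18 ± 0.31 (adjusted p = 0.0244), and Azin2, an antizyme inhibitor that frees ornithine decarboxylase, was at −1.1 ± 0.21 (adjusted p = 0.0045). Both passed without replicate 3, at −1.36 (adjusted p = 0.0232) and −1.08 (adjusted p = 0.0127, edgeR). In resting KO against resting 3F 16 pathway genes were called, 8 higher and 8 lower, where 12.9% of all genes were called, with 7 left without resting KO replicate 3 and 8 without resting 3F replicate 3. Over all tested genes the 1464 calls of this comparison became 918 and 735 in these settings.

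With LPS, 3 of the 83 were called in KO against WT, where 4.79% of all genes were, and 3 in KO against 3F, where 3.88% were, and none in 3F against WT in either state by edgeR, DESeq2 or limma-voom. None was called in either interaction by edgeR or DESeq2, and limma-voom called 1 in that of KO. Aldh18a1 was again lower in KO than in WT (−1.25 ± 0.32, adjusted p = 0.0329, edgeR), at 3.26 ± 1.1 against 7.78 ± 1.24 CPM (SD, n = 3). Cat, the catalase gene, was lower (−0.7 ± 0.17, adjusted p = 0.0243), at 142 ± 24.8 against 231 ± 37.6 CPM. Slc25a10, the mitochondrial dicarboxylate carrier, was higher (0.52 ± 0.13, adjusted p = 0.034), at 77.2 ± 4.76 against 54 ± 3.29 CPM. Cd163, a scavenger receptor from the alternative activation list, was 1.97-fold higher (0.97 ± 0.25, adjusted p = 0.0346). In KO against 3F, Slc25a10 (0.56, adjusted p = 0.0265) and Cd163 (1.16, adjusted p = 0.0183) passed as well, while Cat (−0.53, adjusted p = 0.0908) and Aldh18a1 (−0.83 with LPS, adjusted p = 0.184, and −0.6 at rest, adjusted p = 0.202) did not. With resting KO replicate 3 left out, 7 pathway genes were called in KO against WT with LPS and 6 in KO against 3F. Without resting 3F replicate 3 they were 9 and 6, and leaving out single LPS libraries took both to as few as 0. Over all tested genes the fit of all libraries called 544 against WT and 441 against 3F. These became 944 and 757 without resting KO replicate 3, and 976 and 735 without resting 3F replicate 3. Leaving out single LPS libraries took them to as few as 180 and 142.

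Matches to the miR-146a seed were looked for in the longest annotated 3′ UTR of each gene (Gencode M21, GRCm38). WT and 3F miR-146a share this seed, and KO mice lack miR-146a. The study describes miR-146b, left intact in KO mice, as differing from miR-146a only in the 3′ region. KO cells therefore still have a microRNA with this seed, and the study proposes that its level is higher in KO BMDMs. Of the 9 genes 3 held a 7mer or 8mer match (Acod1, Gch1 and Sod2, with 2 each, and Sod2 a 6mer besides), Ass1 held a single 6mer, and Nos2, Arg1, Arg2, Asl and Odc1 held none. Among 11261 tested genes with an annotated 3′ UTR 20.7% held a 7mer or 8mer and 33.5% a 6mer or longer. The UTR lengths were 1065 bases for Acod1, 1903 for Gch1, 4963 for Sod2 and 255 for Ass1. For Sod2 that exceeds the whole exon length given with the counts, 3824 bases, so part of the UTR searched lay outside the counted exons. Which Sod2 sites lay there was not checked. The sites are shown on the transcript strand, with the bases that pair with the seed or face its first base in capitals.
Acod1, chr14:103056139-103056164, plus strand, 7mer: tctgaatccctagtGTTCTCAagaaa
Acod1, chr14:103056243-103056268, plus strand, 8mer: gcaagaatatatcAGTTCTCAgttca
Gch1, chr14:47154534-47154559, minus strand, 7mer: tgttacaatgaagAGTTCTCcctctg
Gch1, chr14:47154104-47154129, minus strand, 7mer: catctccaggctgtGTTCTCAtcagc
Sod2, chr17:13015558-13015583, plus strand, 7mer: tagagaaccaaatAGTTCTCttttct
Sod2, chr17:13018363-13018388, plus strand, 6mer: aatactttctctatGTTCTCtccttc
Sod2, chr17:13018685-13018710, plus strand, 7mer: acttgcaggaagcAGTTCTCctttga
Ass1, chr2:31520492-31520517, plus strand, 6mer: tgtaattgtagcttGTTCTCcaccac
A seed match is a description of letters and not a shown target site.

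RefSeq promoters (GRCm38.p6, 250 bases before to 50 after the start site) were given for 5 of the 9 genes: Acod1, Ass1, Gch1, Odc1 and Sod2. They were searched on both strands for the NF-κB consensus, the gamma-activated site TTCNNNGAA, the core of the interferon-stimulated response element GAAANNGAA, AP-1 (TGANTCA) and the antioxidant response element TGACNNNGC. Over 32851 promoters of that length, 4.51% held the NF-κB consensus, 8.3% the gamma-activated site, 8.56% the interferon element core, 7.81% AP-1 and 12.4% the antioxidant element. Sod2 held an NF-κB match that began 83 bases before the start site and a gamma-activated site 185 bases before it, and Gch1 an NF-κB match 10 bases before it. No other match of these 5 motifs was found in the 5 windows, which says only that these letters are not there. The promoters of the genes that rose with LPS in all 3 genotypes and have one in the table are shown, with NF-κB and gamma-activated site matches in capitals.
Acod1, chr14:103046762-103047061, plus strand: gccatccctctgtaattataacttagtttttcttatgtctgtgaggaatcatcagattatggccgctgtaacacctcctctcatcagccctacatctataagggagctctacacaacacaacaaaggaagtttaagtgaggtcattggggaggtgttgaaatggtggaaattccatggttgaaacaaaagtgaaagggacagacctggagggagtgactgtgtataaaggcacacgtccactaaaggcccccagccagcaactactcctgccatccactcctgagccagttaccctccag
Gch1, chr14:47189364-47189663, minus strand: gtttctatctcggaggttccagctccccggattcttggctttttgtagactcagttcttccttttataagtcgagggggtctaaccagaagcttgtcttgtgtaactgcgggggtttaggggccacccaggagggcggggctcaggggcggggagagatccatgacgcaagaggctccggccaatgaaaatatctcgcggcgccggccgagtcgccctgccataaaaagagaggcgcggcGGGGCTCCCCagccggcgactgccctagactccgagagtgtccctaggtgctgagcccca
Sod2, chr17:13007589-13007888, plus strand: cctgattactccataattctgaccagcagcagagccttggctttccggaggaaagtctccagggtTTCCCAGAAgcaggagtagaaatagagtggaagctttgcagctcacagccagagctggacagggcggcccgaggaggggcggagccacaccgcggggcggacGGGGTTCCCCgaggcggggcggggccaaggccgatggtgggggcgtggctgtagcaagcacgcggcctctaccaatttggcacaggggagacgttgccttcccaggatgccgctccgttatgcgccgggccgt
Of these, Acod1 had no match in its window and a log2 response of 6.08 in WT, while Gch1 and Sod2, with 1 NF-κB match each, had responses of 2.01 and 3.67. Ass1 and Odc1, whose windows are not shown, had no match either, with WT responses of 3.92 and −0.86. The part of the matches in the responses was not tested.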

How the data were processed

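RNA of 18 BMDM cultures was sequenced as strand-specific libraries after removal of ribosomal RNA. Per the study's methods and the submitters' processing notes, the authors trimmed reads with cutadapt 1.8.3, discarded those from ribosomal DNA, aligned the rest to mm10 with HISAT2 2.1.0, and counted reads of high mapping quality by strand per gene of Gencode release M15 with featureCounts 1.5.3. The mapping quality filter removes reads that fit several places, which lowers genes with near-identical copies. The deposited values are raw counts per protein-coding gene with an exon length. miR-146a itself was not analysed here.

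In R 4.3.3, filterByExpr of edgeR 4.0.16 kept 11357 of 21734 genes, counts were scaled by TMM (factors 0.812 to 1.15), and a single quasi-likelihood model of the 6 group means gave 11 two-sided comparisons. P-values were adjusted over all tested genes by Benjamini-Hochberg and called under 0.05. With 3 libraries against 3, an exact permutation test cannot go below 0.1. CPM are counts per 1000000 of TMM-scaled library size, divided by exon length in kb where genes are compared. Correlations used log2 CPM with a prior count of 2. The enzyme genes, pathway lists and markers were chosen with earlier results of these data known. Named pathway genes are up to 5 called genes per comparison (LPS in WT, KO against WT in each state) outside the interferon list with the largest absolute log2 difference, where log2 CPM averaged 1 or more. Nos2 ratios carry exact binomial intervals. The procedure was tested on simulated data. Alternatives were RLE or no scaling factor, no filter, DESeq2 1.42.0, voom of limma 3.58.1 with quality weights, compared groups alone, the replicate number as block, genotype with replicate number as block as if it named the animal, and leaving out each library, and, chosen after seeing the data, leaving out resting KO replicate 3 and resting 3F replicate 3 together.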

Additional observations from a re-analysis of the deposited data

How the results depend on the processing

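Over 2604 values of a member under an alternative, 2533 kept their direction where called and their side of the threshold, 49 newly passed and 22 no longer did, and no called value turned its direction. The counts of called members moved by over 1.5 times in 4 comparisons. In resting KO against WT the 3 calls became 1 with the compared groups alone, and ran from 2 to 4 with 1 library left out. Over all tested genes the 1067 calls of that comparison became 396 with the compared groups alone, and ran from 392 to 1610 with 1 library left out. In resting KO against 3F the 3 became 6 with limma-voom and 0 with the compared groups alone. There the 1464 calls over all tested genes became 2916 and 16. With LPS, KO against WT had 0 calls, 2 with limma-voom, 3 with the compared groups alone and 3 without resting KO replicate 3 and resting 3F replicate 3, and KO against 3F had 0, 3, 5 and 3. Over all tested genes these settings called 544, 1777, 1031 and 1618 against WT and 441, 1842, 1661 and 1387 against 3F. With 1 library left out both member counts ran from 0 to 1, and the 1 call (Ass1) came without resting KO replicate 3. Over all tested genes they then ran from 180 to 976 and from 142 to 757. The cause was not tested. Over all alternatives, called pathway genes ran from 17 to 51 (27 in the fit reported) for LPS in KO, 2 to 18 (9) and 0 to 17 (3) for KO against WT at rest and with LPS, and 0 to 29 (16) and 0 to 13 (3) for KO against 3F. Called genes over the whole table ran from 2213 to 5218 (3240), 2154 to 6073 (3059) and 2474 to 5478 (3546) for LPS in WT, KO and 3F, 392 to 2259 (1067) and 180 to 1777 (544) for KO against WT at rest and with LPS, 16 to 2916 (1464) and 142 to 1842 (441) for KO against 3F, and 0 to 57 (1) for the KO interaction, with these highest counts all from limma-voom. DESeq2 left 12 adjusted p-values of members as NA (Ass1 in all 11 comparisons, Arg2 in 1), and 3 values of Nos2 at rest could not be had with the compared groups alone because the filter removed it; none of these was counted. The count columns of same-numbered resting and LPS libraries of a genotype share a letter, but the labels do not tie replicate numbers to mice. Same-numbered libraries of a genotype correlated at 0.03 to 0.32 in their deviations from the group mean, over 0.1 in 5 of 9 pairs. Between genotypes the range was −0.29 to 0.4, so a pairing was not established. With 3 mice per genotype, resting and LPS libraries would share mice, and the fit reported treats all libraries as independent. With the replicate block the members called were 7 for LPS in WT, 7 in KO and 8 in 3F, 3 in each resting KO comparison and 0 elsewhere, and the animal as replicate block gave 7, 7 and 8. Over all tested genes the replicate block called 3181, 3087 and 3413 for LPS, and 963 and 1279 in resting KO against WT and 3F. The animal as replicate block called 3040, 3019 and 3323 for LPS. Apart from Arg1 and Ass1 in the KO response, no member's call changed under either block. Depth limits Nos2 at rest and Arg2, which held 1 to 4 counts (81 in resting KO replicate 3) and 5 to 54 counts per library.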
